A study of Mus musculus with 7 samples.

Results

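Pancreatic islets are clusters of hormone-secreting cells embedded in exocrine tissue, and islet preparations can carry exocrine tissue with them. Among 5 libraries of knockout (KO) islets, KO 2 and KO 3 held more exocrine transcripts than KO 1, KO 4 and KO 5. The 2 exocrine-rich libraries and the 3 exocrine-poor libraries were selected on the summed level of 3 digestive enzyme genes, Prss2, Ctrb1 and Cpa1, so the exocrine difference itself is described here without a test. They are 5 of the 7 libraries of the series, and the 2 control libraries were not used. All 5 came from 8-week-old C57BL/6J mice of the same genotype, Abca12 tm1d, in which a conditional floxed allele of the lipid transporter gene Abca12 had been deleted by Rip1-Cre, a Cre recombinase driven by an insulin promoter and therefore active in beta cells. Exocrine cells are not a target of that promoter, and whole islets were sequenced, so every library also held cells in which Cre is not driven. The column headers give KO 2 as female and KO 3 as male among the exocrine-rich libraries, and KO 1 as female and KO 4 and KO 5 as male among the exocrine-poor ones. Xist, an RNA made from the inactive X, was at 368.3 RPM (reads of a gene scaled to the size of the library) in KO 2 and 0.447 RPM in KO 3, against 385.0, 0.403 and 0.533 RPM in KO 1, KO 4 and KO 5, which matches those headers. Each library has its own identifier, and no source used here says whether islets of several animals were pooled. The p-values below therefore refer to the spread between these libraries. For each gene limma moderates that spread toward a spread shared by genes of like level, so the p-values rest on both.

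The exocrine pancreas is made mainly of acinar cells, which fill zymogen granules with inactive precursors of proteases, lipases, amylases and nucleases and release them into a system of ducts. Their identity rests on the PTF1 complex, which contains PTF1A and RBPJL, and the enzyme genes are switched on together. Endocrine cells of the islet, by contrast, store insulin, glucagon, somatostatin and other hormones, and duct cells line the channels between acini and gut.

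The libraries held between 14585679 and 24590888 reads in listed genes. These were 54.7% to 57.0% of the reads implied by the deposited values. Ins1 and Ins2 together made up 9.32% and 10.1% of gene reads in KO 2 and KO 3, against 8.31%, 10.3% and 12.6% in KO 1, KO 4 and KO 5. Transcripts of mitochondrial genes took 1.46% and 1.59% in the exocrine-rich libraries, against 1.38%, 1.68% and 1.64% in the exocrine-poor ones. KO 2 stood apart in its summed level of the ribosomal RNA repeat transcripts Gm42418 and AY036118, at 3959 RPM, with 1838 RPM in KO 3, against 2069, 1502 and 1170 RPM in KO 1, KO 4 and KO 5. The part of that difference in the results below was not tested beyond leaving KO 2 out.

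Prss2, Ctrb1 and Cpa1 together reached 4234 and 4539 RPM in KO 2 and KO 3, against 1380, 722.8 and 860.0 RPM in KO 1, KO 4 and KO 5. The lowest exocrine-rich library, KO 2, thus lay 3.07-fold above the highest exocrine-poor library, KO 1. KO 1 in turn lay 1.74-fold above the mean of KO 4 and KO 5, so the exocrine-poor libraries were not all alike. Over the whole exocrine class, 47 genes for digestive enzymes, zymogen granule proteins and the Reg family, the sums were 13220 and 13527 RPM in the exocrine-rich libraries, against 3879, 2191 and 2639 RPM in the exocrine-poor ones. That is a ratio of means of 4.61. As a share of gene reads the class took 2.37% and 2.47% in KO 2 and KO 3, against 0.694%, 0.391% and 0.463% in KO 1, KO 4 and KO 5. In bulk libraries, fewer cells of a type and less RNA per cell cannot be told apart, so these sums do not count acinar cells. The lack of overlap in Prss2, Ctrb1 and Cpa1 follows from the choice of the libraries, and the names exocrine-rich and exocrine-poor stand for that choice only.

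**Figure D1:**
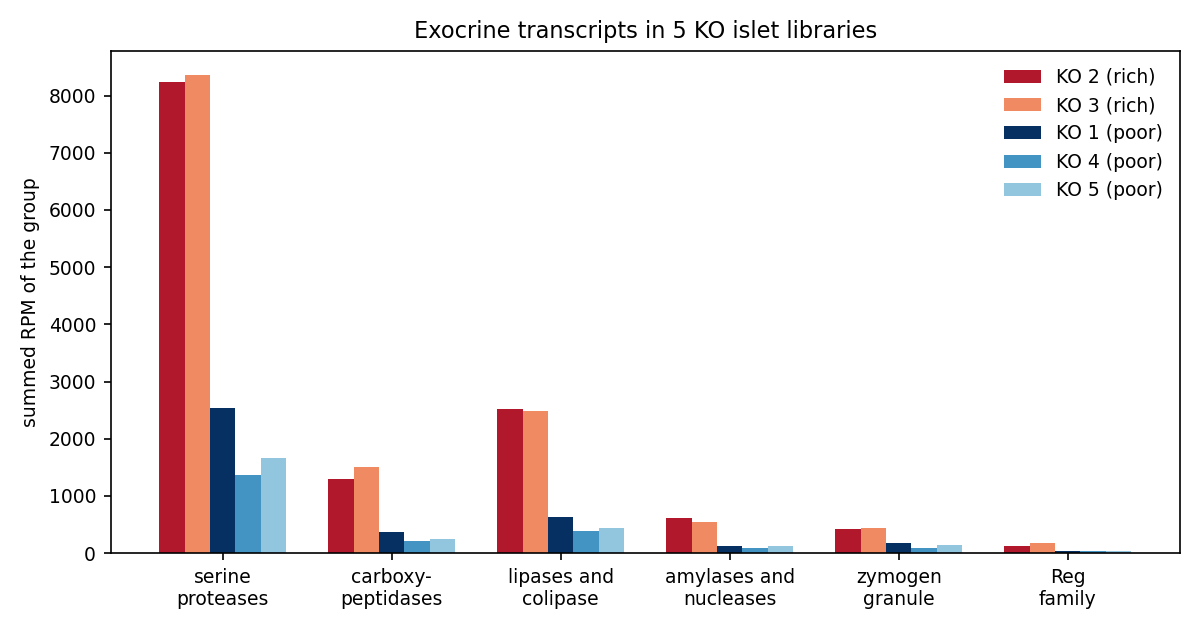
Summed RPM of 6 groups of exocrine genes (x axis) in each of 5 KO islet libraries (bars, 1 per library; red shades exocrine-rich, blue shades exocrine-poor). Serine proteases made up most of the reads of the class, with 8236 and 8365 RPM in the exocrine-rich libraries against 2540, 1365 and 1661 RPM in the exocrine-poor ones.

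The enzyme groups kept close to a common ratio. Of the 47 genes, 45 had a row in the deposited table, 3 of those did not reach the minimum level and 42 entered the fit. Amy2b and Spink3 had no row of that symbol, and Reg3a, Reg3g and Reg4 were below the minimum. In 38 of the 42 genes both exocrine-rich libraries were above all 3 exocrine-poor ones. Over all 15903 genes tested this held for 4.47%, or 9.25% when libraries were scaled by median-of-ratios size factors. The ratio of means had a median of 4.68 over the 42 genes, with quartiles at 4.31 and 5.05. The rule used reads of these same genes, so nothing is read from those counts.

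Among serine proteases, the trypsinogen gene Prss2 was at 786.2 and 843.4 RPM in KO 2 and KO 3, against 228.5, 142.7 and 169.4 RPM in KO 1, KO 4 and KO 5. Ctrb1, which encodes chymotrypsinogen B, was at 2771 and 2874 RPM in the exocrine-rich libraries, against 950.5, 462.2 and 552.4 RPM in the exocrine-poor ones. The elastase gene Cela1 was at 1416 and 1196 RPM in the exocrine-rich libraries, against 353.9, 217.5 and 288.4 RPM in the exocrine-poor ones. For these genes every exocrine-rich value was over 4 times the mean of the exocrine-poor values, and KO 1 was the highest of the exocrine-poor libraries. RPM are not corrected for transcript length, so a level is compared here between libraries and not between genes.

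The carboxypeptidases cut amino acids from the end of a peptide, and the lipase group digests fat. Cpa1 was at 676.9 and 822.0 RPM in KO 2 and KO 3, against 200.6, 117.9 and 138.3 RPM in KO 1, KO 4 and KO 5. The pancreatic lipase gene Pnlip was at 1212 and 1165 RPM in the exocrine-rich libraries, against 287.8, 175.9 and 195.6 RPM in the exocrine-poor ones. Cel, for the bile salt-activated lipase, was at 661.7 and 673.8 RPM in KO 2 and KO 3, against 181.2, 99.9 and 105.6 RPM in KO 1, KO 4 and KO 5. The ratios of means were 4.92 for Cpa1, 5.41 for Pnlip and 5.18 for Cel, and Cpb1, for carboxypeptidase B, had 5.26. The amylase genes are near-identical copies among which reads can be split. Amy2a3, the copy with the most reads, was at 288.3 and 257.2 RPM in the exocrine-rich libraries, against 63.2, 43.1 and 55.4 RPM in the exocrine-poor ones, a ratio of 5.06.

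Genes for granule and secreted proteins and Reg1 come next. Sycn, for the granule protein syncollin, was at 117.1 and 147.1 RPM in KO 2 and KO 3, against 38.5, 20.6 and 29.8 RPM in KO 1, KO 4 and KO 5. Gp2, for the main granule membrane glycoprotein, was at 159.9 and 104.3 RPM in the exocrine-rich libraries, against 36.5, 21.6 and 25.7 RPM in the exocrine-poor ones. Reg1 was at 130.1 and 168.6 RPM in KO 2 and KO 3, against 40.3, 30.2 and 34.5 RPM in KO 1, KO 4 and KO 5. These 3 genes had ratios between 4.27 and 4.73.

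A few members of the class did not share the pattern. Dmbt1, for a mucin-like secreted scavenger protein also made by duct and gut epithelium, was at 38.7 and 78.8 RPM in the exocrine-rich libraries, against 64.9, 36.4 and 49.9 RPM in the exocrine-poor ones. Dnase1 was at 1.16 and 1.10 RPM in KO 2 and KO 3, against 1.07, 1.69 and 1.76 RPM in KO 1, KO 4 and KO 5. Reg3b, a lectin induced in inflamed pancreas and gut, was the single member with both exocrine-rich libraries below all others. It was at 0.376 and 0.473 RPM in KO 2 and KO 3, against 0.613, 0.659 and 1.35 RPM in KO 1, KO 4 and KO 5. Prss3, a trypsinogen gene with close paralogs among which reads can be split, was at 5.33 and 58.0 RPM in the exocrine-rich libraries, against 7.85, 0.659 and 1.07 RPM in the exocrine-poor ones. Its high value belongs to KO 3 alone.

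Upstream sequence is shown for 5 enzyme genes that moved together and for Rbpjl, the pancreas-specific subunit gene of PTF1, because the best known elements of acinar promoters are the paired sites of that complex. Each line is 220 bases upstream of the RefSeq start, read 5′ to 3′ along the gene in GRCm38.p6. Capitals mark CACCTG, a form of the E-box, and TTTCCC, a form of the TC-box, on either strand (CAGGTG and GGGAAA are their reverse complements). The RefSeq starts of Prss2 and Rbpjl differ from the gene starts in the deposited table.
Prss2, chr6:41521556-41521775 (+): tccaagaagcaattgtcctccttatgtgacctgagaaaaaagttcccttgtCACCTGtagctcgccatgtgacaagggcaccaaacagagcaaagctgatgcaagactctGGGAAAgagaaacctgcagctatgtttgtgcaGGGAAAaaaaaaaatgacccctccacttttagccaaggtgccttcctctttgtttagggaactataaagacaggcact
Ctrb1, chr8:111691011-111691230 (-): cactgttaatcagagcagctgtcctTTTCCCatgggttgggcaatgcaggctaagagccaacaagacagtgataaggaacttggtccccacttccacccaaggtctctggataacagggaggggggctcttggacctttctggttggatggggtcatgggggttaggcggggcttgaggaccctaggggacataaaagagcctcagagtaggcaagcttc
Cpa1, chr6:30638998-30639217 (+): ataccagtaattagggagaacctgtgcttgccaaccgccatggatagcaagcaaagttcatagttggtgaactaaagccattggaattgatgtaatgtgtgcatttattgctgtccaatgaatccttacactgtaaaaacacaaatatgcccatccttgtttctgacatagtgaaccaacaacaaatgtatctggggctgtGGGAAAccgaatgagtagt
Cela1, chr15:100687921-100688140 (-): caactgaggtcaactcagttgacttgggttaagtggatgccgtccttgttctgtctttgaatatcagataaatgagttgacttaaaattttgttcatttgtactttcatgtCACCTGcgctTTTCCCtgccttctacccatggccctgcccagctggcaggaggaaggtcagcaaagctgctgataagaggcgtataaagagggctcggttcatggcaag
Cel, chr2:28563404-28563623 (-): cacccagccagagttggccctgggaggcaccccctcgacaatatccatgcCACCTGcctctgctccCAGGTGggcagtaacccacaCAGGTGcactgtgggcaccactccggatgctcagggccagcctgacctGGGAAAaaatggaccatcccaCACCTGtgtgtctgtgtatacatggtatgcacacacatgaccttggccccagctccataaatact
Rbpjl, chr2:164402974-164403193 (+): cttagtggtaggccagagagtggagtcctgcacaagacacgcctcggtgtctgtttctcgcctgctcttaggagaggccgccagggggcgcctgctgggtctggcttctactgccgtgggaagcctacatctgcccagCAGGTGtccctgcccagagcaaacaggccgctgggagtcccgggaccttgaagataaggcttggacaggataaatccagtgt

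Within 250 bases upstream, CACCTG occurred in 17 of the 34 exocrine genes with a promoter entry and in 19.5% of the 11277 tested genes with one. TTTCCC occurred in 32.4% of the exocrine genes and 26.4% of all tested genes. Both motifs together occurred in 23.5% of the exocrine genes and 4.35% of all tested genes, and Prss2, Cela1 and Cel are among the genes with both. Of the genes outside the class described below, 17 of the 21 that rose had an entry, and 47.1% of those held CACCTG, while 16 of the 25 that fell had one, and 31.2% held it. These shares are descriptions of letters in a window, not of binding.

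Genes outside the exocrine class were tested with limma, two-sided, with Benjamini-Hochberg adjustment over all 15903 genes. At an adjusted p under 0.05, 21 of these 15861 genes were higher in the exocrine-rich libraries and 25 were lower. That is 0.132% higher and 0.158% lower. An unadjusted p under 0.05 was reached by 899 genes outside the class. All 46 calls lacked overlap between the sets, and over all genes tested both exocrine-rich libraries were below all exocrine-poor ones in 16.6%, or 9.27% under median-of-ratios scaling. The balance of calls depended on scaling, with 21 higher and 9 lower when libraries were scaled to reads outside the exocrine class, 24 and 13 under median-of-ratios size factors, and 22 and 9 under quantile normalisation. Single libraries moved the counts too. Without KO 2 there were 10 higher and 1 lower genes, and without KO 4 there were 11 and 3. The lower count was 12 without KO 1, 59 without KO 3 and 96 without KO 5. Of the 35 called genes that the naming rule gives, 27 missed the threshold without KO 2, 22 without KO 4, 13 without KO 1, 8 without KO 3 and 2 without KO 5, and none changed sign. The fit asks which other genes differ between 2 sets of libraries that had been split on their exocrine reads.

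**Figure D2:**
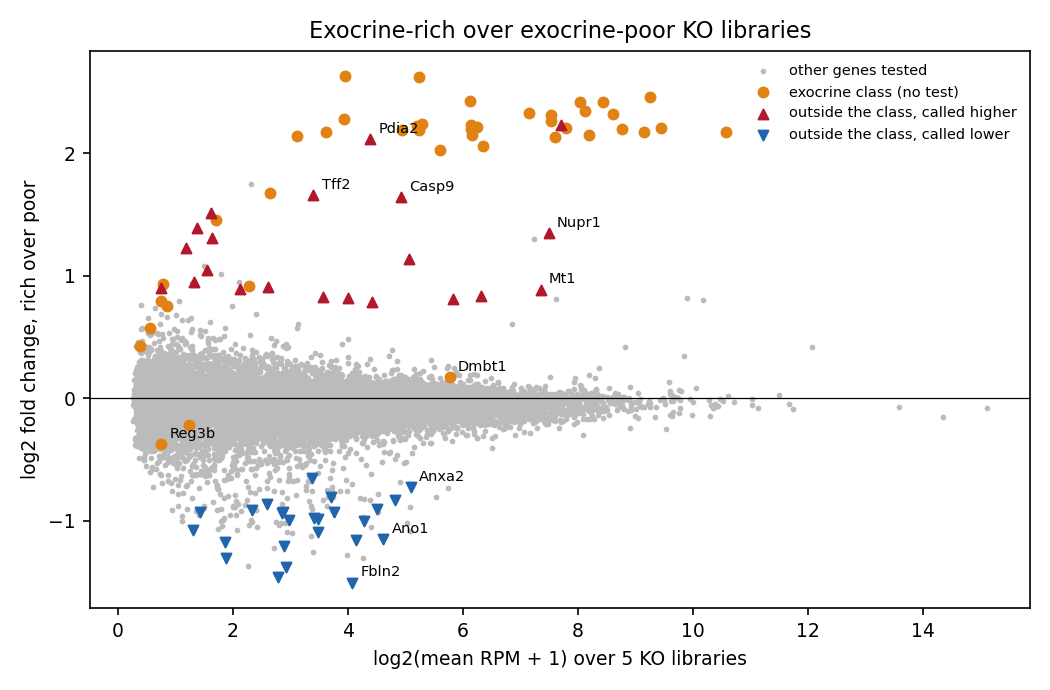
Log2 fold change of exocrine-rich over exocrine-poor KO libraries (y axis, log2(RPM + 1) scale) against mean level (x axis, log2(mean RPM + 1) over 5 libraries), 1 point per gene tested. Exocrine genes (orange, no test) lie mostly near a log2 fold change of 2.19, and of the genes outside the class the 21 called higher (red) lie above zero, with 2210010C04Rik at 2.24, and the 25 called lower (blue) lie below zero.

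The genes that rose included further members of the acinar secretory apparatus. The RIKEN gene 2210010C04Rik, a member of the trypsin family left out of the exocrine class, was at 402.5 and 389.9 RPM in KO 2 and KO 3, against 98.7, 72.3 and 81.1 RPM in KO 1, KO 4 and KO 5. Its log2 fold change was 2.24 (SE 0.11, limma adjusted p = 4.22e-07), and reads may be split with other trypsinogen copies. The trypsinogen gene Prss2 was used to choose the libraries, so this call does not stand apart from that choice. Pdia2, a protein disulfide isomerase of the pancreas that forms disulfide bonds in the endoplasmic reticulum, was at 43.4 and 32.3 RPM in the exocrine-rich libraries, against 11.2, 6.67 and 6.45 RPM in the exocrine-poor ones. It rose by a log2 fold change of 2.12 (SE 0.19, limma adjusted p = 3.53e-05). Erp27, a related protein that binds clients without catalysing the bond, was at 4.77 and 3.34 RPM in KO 2 and KO 3, against 0.843, 0.586 and 0.835 RPM in KO 1, KO 4 and KO 5 (log2 fold change 1.52, SE 0.18, limma adjusted p = 0.000651). The ratios of means of 2210010C04Rik, Pdia2 and Erp27, 4.71, 4.68 and 5.37, lay close to or above the median of the exocrine class. A split on acinar enzyme reads also splits other genes of acinar cells. The calls of Pdia2 and Erp27 therefore do not stand apart from the choice of libraries. The same holds below for the acinar gene Aqp12 and for Klk1b5, a paralog of a gene of the class.

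Aqp12, Slc39a5 and Gjb2 rose at low levels. Aqp12, a water channel of acinar cells, was at 2.67 and 2.23 RPM in the exocrine-rich libraries, against 0.843, 0.220 and 0.418 RPM in the exocrine-poor ones (log2 fold change 1.23, SE 0.20, limma adjusted p = 0.0104). Slc39a5, a zinc transporter, was at 3.98 and 3.65 RPM in KO 2 and KO 3, against 1.30, 0.769 and 0.812 RPM in KO 1, KO 4 and KO 5 (log2 fold change 1.31, SE 0.18, limma adjusted p = 0.00235). Gjb2, the gap junction protein connexin 26, was at 3.68 and 2.79 RPM in the exocrine-rich libraries, against 1.15, 1.25 and 0.765 RPM in the exocrine-poor ones (log2 fold change 1.04, SE 0.18, limma adjusted p = 0.0217). Slc39a5 overlaps Ankrd52, which lies on the opposite strand and has more reads. Without KO 2 the adjusted p was 0.216 for Aqp12, 0.0604 for Slc39a5 and 0.481 for Gjb2. Without KO 4 it was 0.0909 for Aqp12 and 0.0814 for Gjb2.

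Tff2, a trefoil peptide of mucous glands, was at 17.4 and 16.5 RPM in KO 2 and KO 3, against 5.17, 4.54 and 4.31 RPM in KO 1, KO 4 and KO 5. It rose by a log2 fold change of 1.66 (SE 0.14, limma adjusted p = 1.31e-05). Nupr1, a small nuclear protein induced by stress in acinar cells, was at 316.0 and 247.7 RPM in the exocrine-rich libraries, against 129.0, 86.6 and 117.4 RPM in the exocrine-poor ones, with a ratio of means of 2.54 and a log2 fold change of 1.35 (SE 0.14, limma adjusted p = 0.000191). Nupr1 thus had many reads in every exocrine-poor library and a smaller ratio than the enzymes. The adhesion molecule gene Ceacam1, which falls outside the naming rule, showed the same form, at 26.2 and 29.02 RPM in KO 2 and KO 3 against 16.9, 15.4 and 14.5 RPM in KO 1, KO 4 and KO 5 (log2 fold change 0.79, SE 0.11, limma adjusted p = 0.0024).

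Some of the genes that rose lie on or beside an exocrine gene. Casp9, the initiator caspase of mitochondrial apoptosis, was at 47.8 and 52.8 RPM in the exocrine-rich libraries, against 15.1, 14.4 and 16.8 RPM in the exocrine-poor ones (log2 fold change 1.64, SE 0.10, limma adjusted p = 1.04e-06). In the deposited coordinates (GRCm38) Casp9, at chr4:141793612-141815976 on the plus strand, overlaps the elastase gene Cela2a, at chr4:141814962-141826160, and the chymotrypsin gene Ctrc, both on the minus strand. Cela2a averaged 566.0 RPM over the 5 libraries and Casp9 29.4 RPM. No source used here says whether reads were counted by strand, so reads of Casp9 and of these enzyme genes cannot be told apart, and the Casp9 value is uncertain. Sycn, Dnase1, Rbpjl, Tgm2, Tjp3, Icam1, St3gal4 and Filip1l also overlap a gene on the opposite strand and carry the same limit.

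Arhgdig, for a GDP dissociation inhibitor of small GTPases, was at 55.1 and 42.6 RPM in KO 2 and KO 3, against 23.8, 19.7 and 21.3 RPM in KO 1, KO 4 and KO 5. Its log2 fold change was 1.14 (SE 0.12, limma adjusted p = 0.000138). On chromosome 17 it overlaps Pdia2 on the same strand, so reads of this pair may be split. Arhgdig also overlaps Rgs11 on the opposite strand, which averaged 27.8 RPM against 32.5 RPM for Arhgdig, so reads of this pair cannot be told apart either. Klk1b5, a kallikrein gene 4657 bases from its paralog Klk1, was at 2.67 and 3.60 RPM in the exocrine-rich libraries, against 0.689, 0.550 and 0.464 RPM in the exocrine-poor ones (log2 fold change 1.39, SE 0.18, limma adjusted p = 0.00102). Klk1 is itself a gene of the exocrine class with a ratio of 4.76.

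The other genes that rose had smaller log2 fold changes than those above, Ceacam1 apart. Cyp3a13, a cytochrome P450, Myo5c, an unconventional myosin of secretory epithelia, Raet1e, a ligand of the NKG2D receptor, and Procr, the endothelial protein C receptor, had log2 fold changes of 0.95, 0.91, 0.90 and 0.89, with limma adjusted p-values of 0.0437, 0.0463, 0.0437 and 0.0328. Raet1e was at 1.578 and 1.104 RPM in KO 2 and KO 3, against 0.383, 0.1099 and 0.2551 RPM in KO 1, KO 4 and KO 5. Its ratio of means, 5.38, was above the upper quartile of the exocrine class, while Myo5c had 2.13 and Procr 2.22. The Raet1e ratio rests on exocrine-poor values near or below the minimum level of 0.366 RPM and is uncertain. With a pseudocount of 0.1 RPM the log2 fold change of Raet1e was 2.11, and it missed the threshold (limma adjusted p = 0.0939). The metallothioneins Mt1 and Mt2, which bind zinc and copper, rose together with the cystine transporter gene Slc7a11. Mt1 was at 260.5 and 187.6 RPM in KO 2 and KO 3, against 102.6, 104.0 and 158.1 RPM in KO 1, KO 4 and KO 5 (log2 fold change 0.89, SE 0.17, limma adjusted p = 0.0385). Slc7a11 was at 19.98 and 20.98 RPM in the exocrine-rich libraries, against 8.50, 13.6 and 11.9 RPM in the exocrine-poor ones (log2 fold change 0.82, SE 0.16, limma adjusted p = 0.041). With no intensity trend the limma adjusted p was 0.398 for Mt1, 0.36 for Mt2 and 0.311 for Slc7a11. Under robust empirical Bayes it was 0.8, 0.499 and 0.0508. Cyp3a13, Myo5c and Raet1e also missed the threshold with no intensity trend (limma adjusted p = 0.0942, 0.158 and 0.0725). Of the alternative settings, Cyp3a13 passed under 7 of 17, Raet1e under 7 of 16, Myo5c under 9 of 17 and Procr under 11 of 17. Gm45774 overlaps Mt2 on the opposite strand and rose with it, and its reads cannot be told apart from those of Mt2. Nes, the intermediate filament nestin, completes the 21. Ceacam1, Gm45774 and Nes are named for completeness and not by the naming rule.

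The ratios of means of the 21 genes ran between 1.77 and 5.52, and 6 of them reached the lower quartile of the exocrine class. Among the exocrine-poor libraries, KO 1 was above both KO 4 and KO 5 in 13 of the 21, as it was in 34 of the 42 exocrine genes and in 43% of all genes tested. Of the 21, 7 passed the threshold under all 17 alternative settings, namely 2210010C04Rik, Pdia2, Tff2, Casp9, Arhgdig, Klk1b5 and Ceacam1. For 2210010C04Rik, Pdia2, Casp9, Arhgdig and Klk1b5 the limits given above hold under each setting. No setting changed how reads were assigned to genes or how the libraries were chosen.

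**Figure D3:**
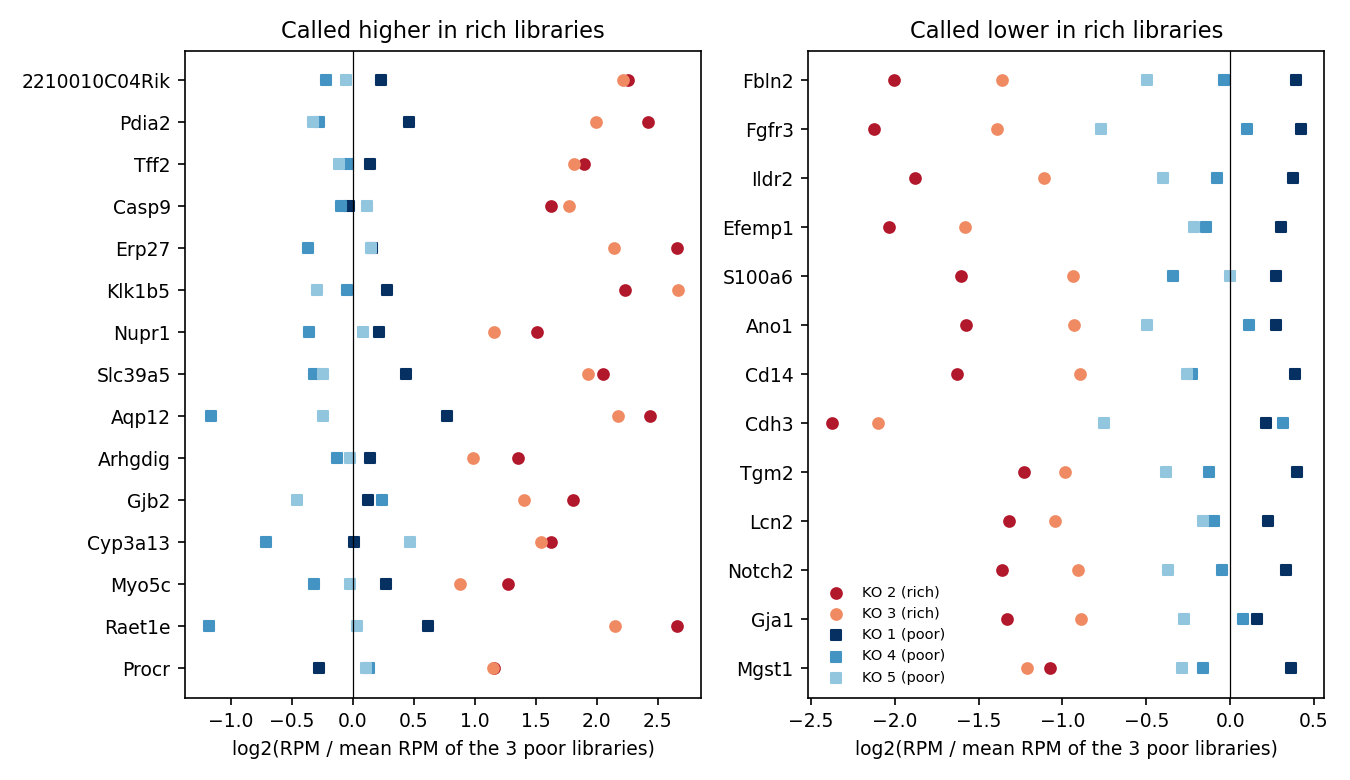
Level of genes with the largest rises (left, 15 genes) and of genes with large falls (right, 13 genes) from the naming rule, as log2 of RPM over the mean RPM of the 3 exocrine-poor libraries (x axis), 1 point per library. Circles are the exocrine-rich libraries and squares the exocrine-poor ones; in each fall shown but that of Mgst1, KO 2 (dark red) lies left of KO 3.

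Lists of the wider acinar programme were counted next. Of 9 transcription factor genes of acinar cells, 8 were tested and none passed. Rbpjl was at 1.13 and 1.03 RPM in KO 2 and KO 3, against 0.345, 0.183 and 0.209 RPM in KO 1, KO 4 and KO 5 (log2 fold change 0.74, SE 0.16, limma adjusted p = 0.0858). Ptf1a was at 1.502 and 0.868 RPM in the exocrine-rich libraries, against 0.268, 0.513 and 0.255 RPM in the exocrine-poor ones (limma adjusted p = 0.219). In Rbpjl, Ptf1a and Gata4, 3 of the 8, both exocrine-rich libraries were above all others, at levels near the minimum. Under median-of-ratios scaling this held for 4 of the 8. Over all genes tested it held for 4.47%, or 9.25% under that scaling. Rbpjl was below the minimum in all 3 exocrine-poor libraries and entered the fit through KO 2 and KO 3 alone, so its lack of overlap was fixed by the filter. Gata6 lacked overlap the other way, at 10.3 and 9.41 RPM in KO 2 and KO 3 against 15.5, 13.3 and 11.04 RPM in KO 1, KO 4 and KO 5 (limma adjusted p = 0.63). Bhlha15, which shapes the secretory state of acinar cells, overlapped at 70.4 and 84.2 RPM in KO 2 and KO 3 against 74.9, 83.9 and 80.3 RPM in KO 1, KO 4 and KO 5, and so did Xbp1 and Nr5a2. Of 8 tested secretagogue receptors, channels and gap junction genes, Gjb2 and Aqp12 rose and none fell at the threshold. Over all genes outside the class 0.132% were called higher and 0.158% lower. Gjb1, another gap junction gene of this list, had both exocrine-rich libraries below all others. It was at 1.28 and 1.45 RPM in KO 2 and KO 3, against 3.33, 2.125 and 2.97 RPM in KO 1, KO 4 and KO 5 (limma adjusted p = 0.231). The receptor gene for cholecystokinin, Cckar, was at 2.33 and 0.447 RPM in the exocrine-rich libraries, against 1.03, 0.0733 and 0.209 RPM in the exocrine-poor ones, with overlap.

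Of the lists for the secretory endoplasmic reticulum, for chaperones and for acinar metabolism, only the first held calls. Of 18 tested genes of the secretory endoplasmic reticulum, Pdia2 and Erp27 rose and none fell, against 0.132% called higher and 0.158% called lower over all genes outside the class, and the median log2 fold change was -0.04, against -0.05 over all genes tested. None of 24 tested chaperone and unfolded protein response genes passed, and their ratios of means ran between 0.884 and 1.09. Their summed level was 10735 and 10888 RPM in KO 2 and KO 3, against 11034, 10933 and 10903 RPM in KO 1, KO 4 and KO 5. Of 14 tested genes of acinar metabolism none passed. Cth, which makes cysteine from cystathionine, had the smallest p of them, with 6.24 and 5.34 RPM in the exocrine-rich libraries against 4.63, 2.42 and 2.83 RPM in the exocrine-poor ones (log2 fold change 0.69, SE 0.21, limma adjusted p = 0.352). It passed among males alone (log2 fold change 0.81, adjusted p = 0.0451) and without KO 1 (0.90, adjusted p = 0.0397).

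**Figure D4:**
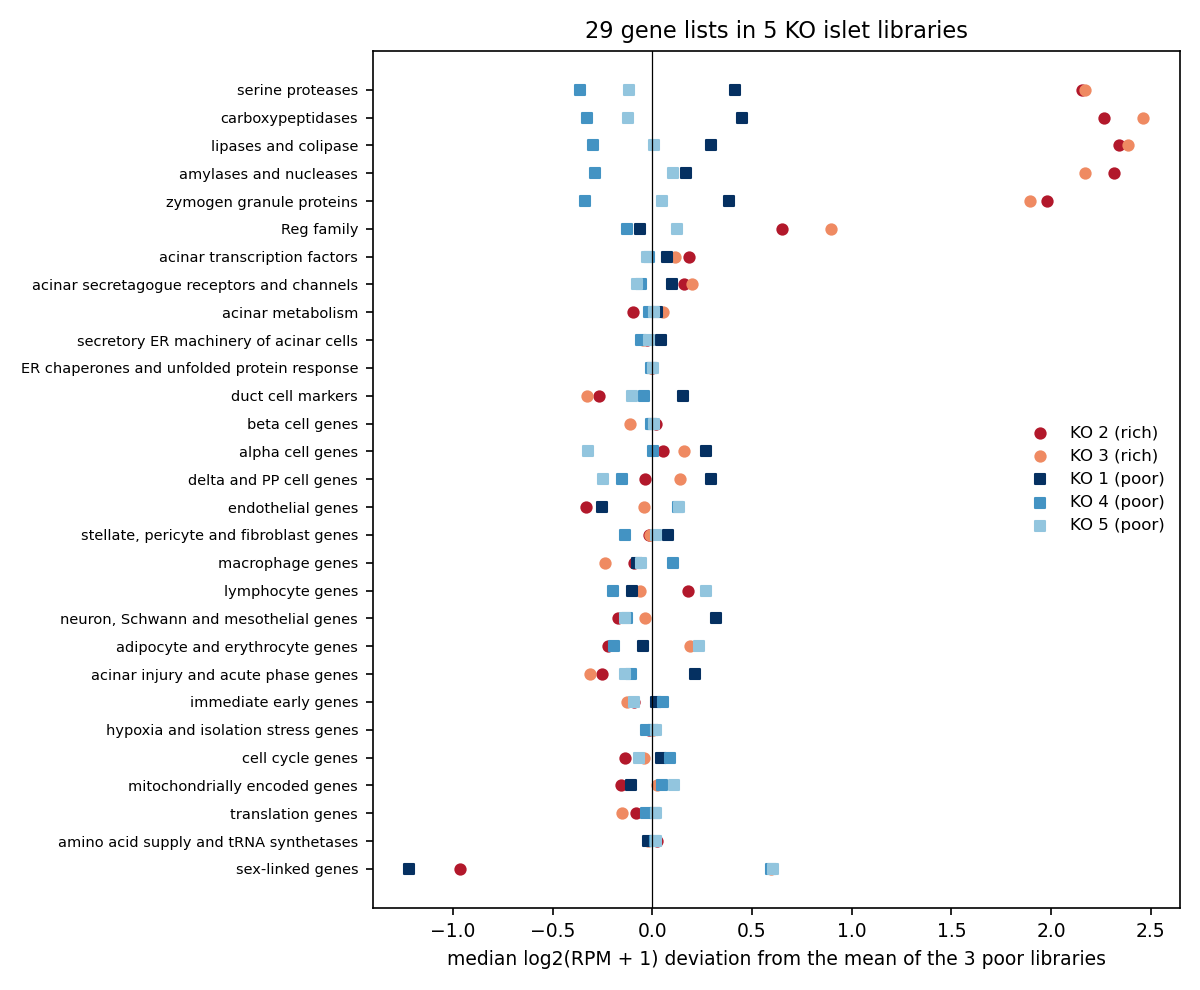
Median over the tested members of each of 29 gene lists of the log2(RPM + 1) deviation from the mean of the 3 exocrine-poor libraries (x axis), 1 point per library. The 5 lists of enzymes and granule proteins lie near 2 in KO 2 and KO 3, the Reg family lies at 0.65 and 0.90, and the lists below them lie within 0.4 of zero in KO 2 and KO 3, except the sex-linked genes, which separate KO 1 and KO 2 from the others.

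Fbln2 and Fgfr3 were among the genes that fell most. Fbln2, the matrix glycoprotein fibulin 2, was at 5.45 and 8.52 RPM in KO 2 and KO 3, against 28.8, 21.4 and 15.5 RPM in KO 1, KO 4 and KO 5. Its log2 fold change was -1.51 (SE 0.21, limma adjusted p = 0.00337). The related Efemp1, fibulin 3, was at 0.901 and 1.24 RPM in the exocrine-rich libraries, against 4.56, 3.33 and 3.18 RPM in the exocrine-poor ones (log2 fold change -1.17, SE 0.18, limma adjusted p = 0.00886). Tgm2, a transglutaminase that crosslinks proteins, was at 9.99 and 11.9 RPM in KO 2 and KO 3, against 30.9, 21.4 and 18.0 RPM in KO 1, KO 4 and KO 5 (log2 fold change -1.005, SE 0.18, limma adjusted p = 0.022). KO 1 was the highest library for all 3 of these genes and KO 2 the lowest.

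Genes for receptors and channels were among those that fell. Fgfr3, a fibroblast growth factor receptor, was at 2.10 and 3.50 RPM in the exocrine-rich libraries, against 12.3, 9.86 and 5.38 RPM in the exocrine-poor ones (log2 fold change -1.38, SE 0.26, limma adjusted p = 0.0368). Ano1, a calcium-activated chloride channel of secretory epithelia, was at 10.2 and 16.0 RPM in KO 2 and KO 3, against 36.8, 33.0 and 21.6 RPM in KO 1, KO 4 and KO 5 (log2 fold change -1.15, SE 0.20, limma adjusted p = 0.0217). The gap junction gene Gja1, for connexin 43, fell with a log2 fold change of -0.98 (SE 0.16, limma adjusted p = 0.0145), in contrast to Gjb2. Notch2, a receptor of the Notch pathway, Ildr2, a membrane protein of the immunoglobulin family, and Cdh3, P-cadherin, had log2 fold changes of -0.99, -1.20 and -1.08, with limma adjusted p-values of 0.0328, 0.0263 and 0.0437.

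Lcn2, S100a6 and Cd14 fell as well. Lcn2, an iron-binding acute phase protein, was at 3.53 and 4.29 RPM in the exocrine-rich libraries, against 10.3, 8.24 and 7.89 RPM in the exocrine-poor ones (log2 fold change -0.997, SE 0.16, limma adjusted p = 0.0104). S100a6, a calcium-binding protein, was at 7.14 and 11.4 RPM in KO 2 and KO 3, against 26.2, 17.2 and 21.8 RPM in KO 1, KO 4 and KO 5 (log2 fold change -1.16, SE 0.18, limma adjusted p = 0.01). Cd14, a coreceptor for bacterial lipopolysaccharide, was at 4.28 and 7.12 RPM in the exocrine-rich libraries, against 17.3, 11.3 and 11.1 RPM in the exocrine-poor ones (log2 fold change -1.09, SE 0.21, limma adjusted p = 0.0368). Cd14 was the single gene of 15 tested macrophage genes that passed, where 0.132% of all genes outside the class were called higher and 0.158% lower. The summed level of the macrophage list was 71.6 and 64.5 RPM in KO 2 and KO 3, against 85.0, 86.3 and 86.1 RPM in KO 1, KO 4 and KO 5, a sum that includes Cd14. Without Cd14 it was 67.3 and 57.3 RPM in KO 2 and KO 3, against 67.7, 74.95 and 74.98 RPM in KO 1, KO 4 and KO 5, so KO 2 was close to KO 1. The part of macrophages in the Cd14 result was not tested.

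Mgst1, for a microsomal glutathione transferase, fell too. It was at 3.79 and 3.44 RPM in the exocrine-rich libraries, against 10.3, 7.14 and 6.54 RPM in the exocrine-poor ones (log2 fold change -0.94, SE 0.18, limma adjusted p = 0.041). Msln, the mesothelial surface protein mesothelin, was at 11.3 and 16.7 RPM in KO 2 and KO 3, against 33.0, 26.6 and 21.3 RPM in KO 1, KO 4 and KO 5 (log2 fold change -0.90, SE 0.17, limma adjusted p = 0.041). Other mesothelial markers of that list, Upk3b, Wt1 and Lrrn4, were below the minimum level. Anxa2, a membrane-binding annexin, was at 22.7 and 24.1 RPM in the exocrine-rich libraries, against 50.3, 36.5 and 33.2 RPM in the exocrine-poor ones (log2 fold change -0.73, SE 0.14, limma adjusted p = 0.041). Klf5, Icam1, St3gal4, Tjp3, Bicc1, Tlr4, Cav1 and Filip1l also fell and are named for completeness, with log2 fold changes between -0.93 and -0.65.

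Within the sets the lower genes were ordered as follows. KO 1, which had the most exocrine reads of the 3 exocrine-poor libraries, had the highest level of 20 of the 25 genes. Of the 2638 genes tested in which both exocrine-rich libraries were below all others, KO 1 was highest in 43.7%. KO 2 lay below KO 3 in 22 of the 25, and in 47.7% of those 2638 genes. No lower gene passed the threshold under all 17 alternative settings, and each passed under 3 to 14 of them, while the sign of the fold change stayed negative in all. Without KO 2 the adjusted p of Fbln2 was 0.0811, that of Lcn2 0.198 and that of Efemp1 0.194. Without KO 4 that of Lcn2 was 0.0652.

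Duct cell markers stood beside these changes. All 20 duct markers were tested. Tff2 rose and none fell at the threshold, where 0.132% of all genes outside the class were called higher and 0.158% lower. Of the 20 markers, 3 had both exocrine-rich libraries above all others and 8 had both below, where all genes tested gave 4.47% above and 16.6% below. Under median-of-ratios scaling these were 4 and 7 markers, where all genes gave 9.25% and 9.27%. The median log2 fold change of the list was -0.22 and stayed between -0.26 and -0.16 under the other scalings, against -0.05 over all genes tested. Krt19, the duct keratin 19, was at 31.7 and 42.8 RPM in the exocrine-rich libraries, against 79.2, 55.3 and 54.5 RPM in the exocrine-poor ones (log2 fold change -0.73, SE 0.15, limma adjusted p = 0.0633). It passed with sex as a covariate (adjusted p = 0.0239), without KO 3 (0.0274) and without KO 5 (0.0272).

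Other duct genes were spread on both sides. Muc1 was at 7.47 and 8.75 RPM in KO 2 and KO 3, against 20.5, 12.7 and 12.6 RPM in KO 1, KO 4 and KO 5 (limma adjusted p = 0.105). Cldn4, a tight junction protein, was at 155.9 and 134.2 RPM in the exocrine-rich libraries, against 112.0, 95.7 and 79.0 RPM in the exocrine-poor ones (limma adjusted p = 0.0518). The summed level of the list, led by Spp1, was 3171 and 2591 RPM in KO 2 and KO 3, against 3260, 2541 and 3275 RPM in KO 1, KO 4 and KO 5, and so overlapped. No duct marker was at 0 in any of the 5 libraries. The part of duct cells in the calls was not tested.

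**Figure D5:**
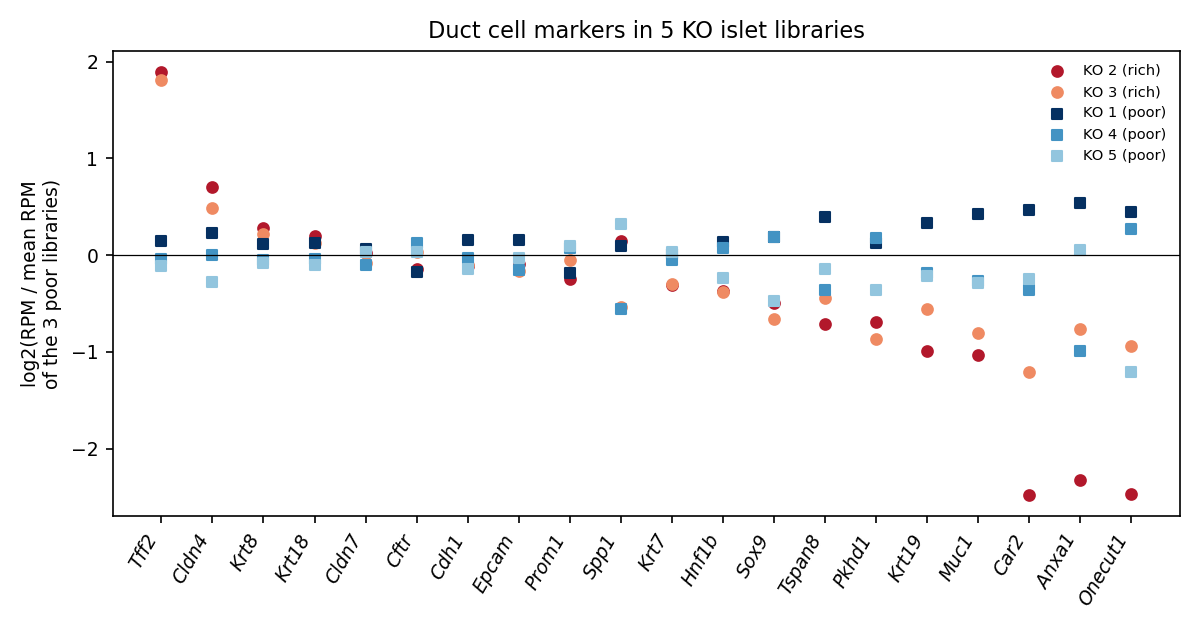
Level of each of 20 duct cell markers (x axis), as log2 of RPM over the mean RPM of the 3 exocrine-poor libraries (y axis), 1 point per library. Tff2, Cldn4 and Krt8 lie above all exocrine-poor libraries in both exocrine-rich libraries, and 8 markers, Krt19 and Muc1 among them, lie below.

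Islet hormone genes overlapped between the sets. Ins1 was at 19061 and 19761 RPM in the exocrine-rich libraries, against 16803, 22089 and 27290 RPM in the exocrine-poor ones (log2 fold change -0.16, SE 0.34, limma adjusted p = 0.993). Ins2 was at 33011 and 35191 RPM in KO 2 and KO 3, against 29617, 35444 and 44329 RPM in KO 1, KO 4 and KO 5 (log2 fold change -0.08, SE 0.41, limma adjusted p = 0.998). Gcg, for glucagon, was at 3892 and 5749 RPM in the exocrine-rich libraries, against 6666, 3022 and 2213 RPM in the exocrine-poor ones (log2 fold change 0.42, SE 0.35, limma adjusted p = 0.956). KO 1, with the least insulin, had the most glucagon. Sst, Ppy and Pyy also overlapped. Among males alone, limma called Gcg (log2 fold change 1.15, adjusted p = 2.59e-05), Sst (0.64, adjusted p = 0.00357) and Vip (1.03, adjusted p = 0.000156), with the spread taken from KO 4 and KO 5 only. Sst also passed without KO 1 (0.66, adjusted p = 0.00383). Leaving out 1 library gave log2 fold changes between 0.076 and 0.87 for Gcg and between 0.18 and 0.66 for Sst. In all 5 libraries, none of 30 beta cell, 16 alpha cell or 13 delta and PP cell genes tested passed, and their median log2 fold changes were -0.04, 0.10 and 0.04. The SEs of the hormone genes allow differences in either direction.

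Lists for other cells and for tissue handling follow. All 19 tested endothelial genes had a lower mean in the exocrine-rich libraries and none passed. Their median log2 fold change was -0.15, and between -0.11 and -0.08 under the other scalings. Their summed level was 186.1 and 231.3 RPM in KO 2 and KO 3, against 201.4, 260.5 and 266.4 RPM in KO 1, KO 4 and KO 5, with overlap. None of 18 stellate, pericyte and fibroblast genes passed, and Sparc, a matrix protein of these cells, was at 32.6 and 40.0 RPM in the exocrine-rich libraries, against 48.7, 43.5 and 48.5 RPM in the exocrine-poor ones (limma adjusted p = 0.25). Most lymphocyte markers, 9 of 15, were below the minimum level. Of 15 tested genes of acinar injury and acute phase, Tff2 rose and Lcn2 and Anxa2 fell, and 6 had both exocrine-rich libraries below all others, or 5 under median-of-ratios scaling. Over all genes outside the class 0.132% were called higher and 0.158% lower, and over all genes tested 16.6% had both exocrine-rich libraries below, or 9.27% under that scaling. Of 16 tested genes of hypoxia and isolation stress, Mt1 and Mt2 rose and none fell. None of 18 immediate early genes passed, and Ier3 had the smallest p (limma adjusted p = 0.221). None of 17 cell cycle, 13 mitochondrially encoded or 20 translation genes passed. In the translation list, 9 genes had both exocrine-rich libraries below all others, against 16.6% of all genes tested. Under median-of-ratios scaling 3 of the 20 did so, against 9.27% of all genes.

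Each sex held an exocrine-rich library by the choice of libraries, so an exocrine difference within each sex follows from that choice. In females the exocrine class was 3.41-fold higher in KO 2 than in KO 1, and in males it was 5.60-fold higher in KO 3 than in the mean of KO 4 and KO 5. Pdia2 was 3.89-fold higher in the female pair and 4.92-fold higher in the males, Tff2 3.36-fold and 3.72-fold, and Nupr1 2.45-fold and 2.43-fold. Of the lower genes, Fbln2 in KO 2 was 0.189 of its level in KO 1, and in KO 3 it was 0.462 of the mean of KO 4 and KO 5. Among males alone, KO 3 against KO 4 and KO 5, limma called 53 genes higher and 38 lower, with the spread taken from the pair KO 4 and KO 5 only. With sex as a covariate, 30 genes were higher and 60 lower.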

How the data were processed

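Whole-islet RNA of 5 KO libraries was polyA-selected and sequenced with a directional kit, per the labels' protocols. HISAT2, DESeq2 and GRCm38 appear in the submitters' processing notes without version or role. Counting software, strand setting and annotation were not given in the sources used here. For each library the authors deposited 1 log2 value per gene. The deposited log2 values proved to be log2 RPM: taken off the log scale, 99.9% to 100.0% of values fell within 0.02 of whole numbers of a unit particular to each library, the worth of 1 read, and genes with no read held 0.9 of that unit. The unit gives between 26108900 and 43117300 reads per library. A count of 0 allows up to 3 reads, which is 0.0696 to 0.115 RPM by library, for counting error only.

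Of 34245 listed genes, 11286 had no read in these 5 libraries, and 15903 reached 10 reads at the median depth (0.366 RPM) in at least 2 libraries and were tested. Of 26 symbols turned into dates, 22 were restored by position in GENCODE M21, with which 92.7% of positions agreed exactly, and 80 genes shared a symbol with another. limma 3.58.1 in R 4.3.3 fitted log2(RPM + 1) with an intensity trend, KO 2 and KO 3 against KO 1, KO 4 and KO 5, with Benjamini-Hochberg adjustment over all genes tested and a threshold of 0.05. Fold changes on this scale understate those of low genes, so ratios of mean RPM are given too. Genes of 6 exocrine lists carry no p. The fit was tested on simulated data.

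The libraries, the 29 gene lists and the tests were chosen with earlier results of these data known. The naming rule gives fixed markers and hormones, exocrine genes by level or overlap, up to 15 called genes each way by size with at least 20 reads on average, and up to 3 called members or the smallest p of each list. Some genes it gives are not reported here. Alternatives covered scaling, pseudocount, filter, model, sex and leaving out each library. Upstream sequences are those of RefSeq, GRCm38.p6, matched by symbol.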

Additional observations from a re-analysis of the deposited data

Results flagged for a closer look

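Prss3, a trypsinogen gene with close paralogs, was at 58.01 RPM in KO 3, while the other 4 libraries lay between 0.659 and 7.85 RPM. The gap of KO 3 to the nearest library, divided by the range of all 5, was 0.875, above the critical value of 0.71 for 5 samples. Chance flags about 1 in 20 groups of like samples in this way. Prss3 is a gene of the exocrine class, and KO 3 was chosen as exocrine-rich on genes of that class. The flag is therefore a description of this value and not a test.

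For 14 genes the difference of exocrine-rich minus exocrine-poor libraries itself differed between males (KO 3 against KO 4 and KO 5) and females (KO 2 against KO 1) in limma's interaction term. There was 1 female per set and 1 exocrine-rich male, so the spread rests on KO 4 and KO 5 and on limma's prior, and these p-values do not show a difference between the sexes, which cannot be told apart from the single libraries. Gcg had the largest such difference among them: 1.93 on the log2 scale (adjusted p = 2.01e-05), with 1.15 in males and -0.776 in females. The delta and PP cell genes Sst and Vip had male minus female differences of 0.91 (adjusted p = 0.018) and 1.16 (adjusted p = 0.018), both positive in males and negative in females. Among the lower genes the male minus female differences were 1.20 for Fbln2, 1.21 for Fgfr3, 1.13 for Ildr2, 1.02 for S100a6, 1.05 for Ano1, 1.21 for Cd14, 0.86 for Tgm2 and 0.99 for Msln, with limma adjusted p-values between 0.00127 and 0.0476. Krt19 gave 0.94 (adjusted p = 0.00092), with -0.351 in males and -1.29 in females. Mt1 and Mt2 gave -0.79 and -0.72 (adjusted p = 0.00697 and 0.0241). In the whole table the interaction passed the threshold for 151 genes.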

How the results depend on the processing

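The ratio of summed exocrine levels, 4.61, stayed between 4.10 and 5.54 when any library was left out, was 4.82 under median-of-ratios scaling and 4.44 for Prss2, Ctrb1 and Cpa1 alone. The count of 21 higher genes was 7 with no filter and 53 with males only, and ran between 10 and 28 when a library was left out. The count of 25 lower genes was 9 when scaled to reads outside the exocrine class, 13 under median-of-ratios scaling, 9 under quantile normalisation, 0 with no filter, 5 with no intensity trend, 60 with sex as a covariate, 38 with males only and 4 with voom on recovered reads, and ran between 1 and 96 when a library was left out. All these counts are limma's, the causes were not tested, and leaving out KO 2 or KO 3 leaves 1 exocrine-rich library, which is then assumed to vary like the others. No called gene changed sign. Signs changed for genes without a call: Ppy (0.14 with males only), Pyy (0.039 with males only), Xist (-0.039 with sex as a covariate, -0.0197 with males only) and Fabp4 (0.032 scaled to reads outside the class, 0.038 under median-of-ratios, 0.066 under quantile normalisation, 0.021 with sex as a covariate, 0.17 with males only). Leaving out 1 library gave log2 fold changes of -0.339 to 0.0106 for Ins1, -0.218 to 0.0731 for Ins2, -0.238 to 0.066 for Ppy, -0.138 to 0.0193 for Pyy, -2.70 to 5.30 for Xist, -3.36 to 1.49 for Ddx3y, -0.22 to 0.19 for Fabp4 and -0.18 to 0.60 for Kdm6a. No paired analysis was possible because both sets are KO libraries and share no replicate number. Depth limits Rbpjl, Ptf1a, Cckar and Raet1e, whose values lie near 1 RPM or below in most libraries.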
